A study of Mus musculus with 5 samples.

Results

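The control regions of paternally methylated imprinted genes were examined in 3 windows of the mouse genome (build mm9), which hold 4 genes. The windows were chromosome 7 from 149760000 to 149772000 with H19 and its control region, chromosome 12 from 110690000 to 110815000 from Dlk1 to Meg3, and chromosome 9 from 89760000 to 89782000 with the control region of Rasgrf1. They were defined by position alone, although members and lists were chosen with earlier results of these data known. They held 353 of the 2328518 autosomal CpG positions listed in any library, a position being the cytosine of a CpG on 1 strand. The assay was extended reduced representation bisulfite sequencing of LSK cells (Lin-, Sca1+, Kit+), a bone marrow fraction that includes blood stem cells. There were 3 libraries from Idh1-R132H knock-in mice and 2 from wild-type mice, all on a mixed 129Ola and C57Bl/6J background. The labels give no age, no driver of the knock-in allele, no treatment and no statement on pooling or separate animals, so p-values reflect only how these libraries varied, and that variation may be technical. The files hold DNA methylation only, so the cell type could not be checked against the expression of its markers.

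Imprinted genes are expressed from 1 parental copy, and the choice is written as DNA methylation on 1 copy of a control region. In these domains the mark is laid down in the male germline, so the paternal copy is methylated and the maternal copy is not, and a cell holds an even mix of both. At H19, a noncoding RNA gene, the unmethylated maternal copy binds the insulator protein CTCF and keeps distant enhancers from Igf2, a growth factor gene. On chromosome 12 the intergenic control region governs Dlk1, which encodes a membrane protein of the Notch ligand family and is read from the paternal copy, and Meg3, a noncoding RNA read from the maternal copy. Rasgrf1 encodes an exchange factor for Ras proteins. Mutant Idh1 makes 2-hydroxyglutarate, which can inhibit the TET enzymes that oxidise methylated cytosine, and the comparison asks whether methylation differed between mutant and wild-type cells.

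One stretch could be tied to sequence, and it is shown because it held partly methylated CpGs right before the start of Meg3. The sequence is 1 of 2 Meg3 entries among RefSeq promoters (build GRCm38.p6, chr12:109540746-109541045, plus strand), 300 bases around the start of transcription. Of its 13 CpGs, the 6 in capitals were listed in at least 1 library.
Meg3 promoter: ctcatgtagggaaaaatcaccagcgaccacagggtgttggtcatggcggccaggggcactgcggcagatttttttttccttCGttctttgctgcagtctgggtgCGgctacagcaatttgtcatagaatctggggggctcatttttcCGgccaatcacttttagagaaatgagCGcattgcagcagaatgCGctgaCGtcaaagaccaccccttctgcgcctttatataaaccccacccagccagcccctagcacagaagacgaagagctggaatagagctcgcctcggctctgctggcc
The 6 were placed by their spacing, which fitted this entry at 1 point and the other Meg3 entry nowhere. The same spacing of CpGs occurs in 11 of the 32851 RefSeq promoters (0.0335%), on either strand. They lie between 169 and 54 bases before the start. The sequence holds 1 CCGG, the site at which the enzyme MspI cuts to make the library, and 52.8% of all RefSeq promoters hold at least 1. H19 has no entry.

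Depth set what could be compared. Knock-in replicates 1, 2 and 3 listed 165, 80 and 293 positions in the windows, and wild-type replicates 1 and 2 listed 56 and 140. A listed position had at least 10 reads, and the median in the windows was 24, 18 and 21 reads for knock-in and 16 and 23 for wild-type libraries. Of the 353 positions, 193 were listed in 1 library and 32 in all 5. Of the 134 positions found in knock-in replicate 3 alone, 108 lay in the Dlk1 to Meg3 window, 55 of them between Dlk1 and the control region. The 353 positions fell into 92 clusters more than 100 bases apart, and the 32 shared ones into 9. Positions a few bases apart are read on the same molecules and are not independent. Knock-in replicate 2 and wild-type replicate 1 listed the fewest positions, and they also stood apart on chromosome X, where CpG-dense tiles were at 24.1% in both and at 2.94 to 3.82% in the other 3 libraries.

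**Figure D1:**
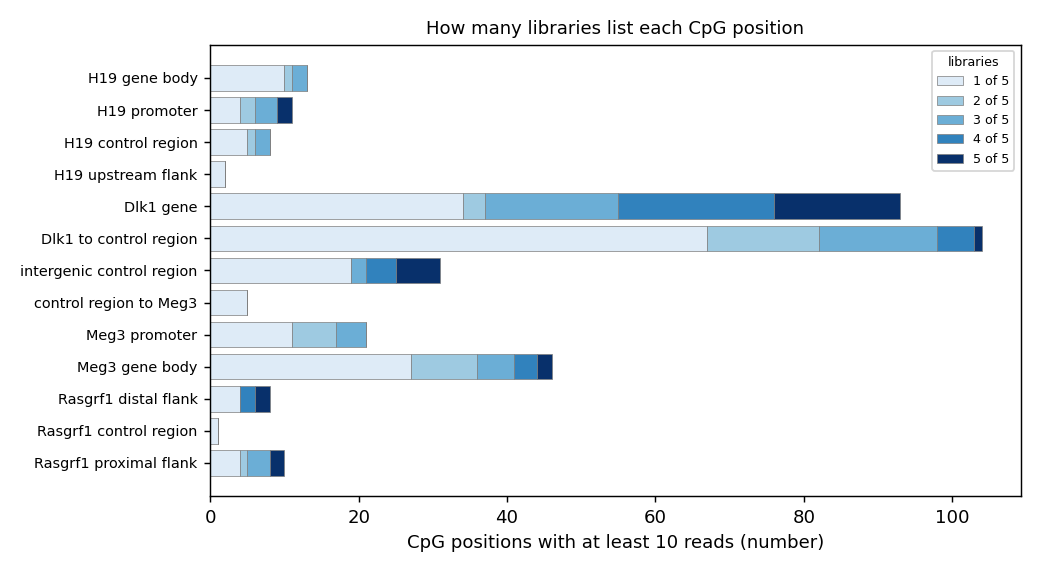
Number of CpG positions with at least 10 reads in each region (bars), split by how many of the 5 libraries list them (shades). The H19 and Rasgrf1 control regions and the Meg3 promoter have no position listed in all 5 libraries, and the Dlk1 gene has 17.

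The H19 window was highly methylated over the gene body and mixed at the promoter and in the control region. Regions were set from the known positions of these elements. Over the gene body, knock-in replicate 3 listed 12 positions from 10 to 81 reads, and 10 of them were at 80% or more. The 2 positions listed in the 3 deepest libraries, 149761700 and 149761722, averaged 98.9% and 91.98% in the deeper knock-in replicates 1 and 3, with wild-type replicate 2 at 88.9%. All 3 libraries were high there.

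At the H19 promoter the strands gave different pictures. On the forward strand, the 3 positions 149764070, 149764096 and 149764109 were at 40.2 to 45.6% in knock-in replicate 3, 68.8 to 70.6% in wild-type replicate 1 against 25.0 to 31.4% in wild-type replicate 2. The wild-type libraries thus lay on both sides of the knock-in library. On the reverse strand, 36 bases further, position 149764145 was at 26.2% in knock-in replicate 1 (11 of 42 reads, 95% Wilson interval 15.3 to 41.1), 7.84% in knock-in replicate 3 (4 of 51 reads) and 0% in the other 3 libraries. Intervals and limits cover counting error only, since reads were amplified by PCR and carry no molecular identifiers. A count of 0 allows up to 18.8% in knock-in replicate 2 (16 reads), 13.6% in wild-type replicate 1 (22 reads) and 16.7% in wild-type replicate 2 (18 reads). Position 149764148 beside it was at 9.30% and 1.92% in the same 2 knock-in libraries and at 0% in the rest. These were the only positions of the H19 window listed in all 5 libraries, fewer than the 3 required for a test.

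The H19 control region itself held 8 listed positions, all from 149766857 to 149767292. None was listed in wild-type replicate 1, and knock-in replicate 2 listed 1. The 1 position listed in the 3 deepest libraries, 149767092 on the forward strand, was at 45.5% in knock-in replicate 1 (5 of 11 reads, Wilson interval 21.3 to 71.99), 31.4% in knock-in replicate 3 (16 of 51, interval 20.3 to 45.03) against 69.2% in wild-type replicate 2 (9 of 13, interval 42.4 to 87.3). The wild-type value was the highest, but it came from 1 library, so no test of genotype was made. Across the 8 positions knock-in replicate 3 ranged from 0 to 100%, with 3 at 20 to 80%. Position 149767292 on the reverse strand was at 100% in knock-in replicate 2, 81.8% in knock-in replicate 3 against 91.7% in wild-type replicate 2, on 11, 33 and 12 reads. Single positions in this region, at Rasgrf1 and at Meg3 were named after their values were seen.

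Igf2, which the H19 control region governs, was nearly unmethylated at its shared positions. Over 96 shared positions from 149844277 to 149850292 on chromosome 7 the knock-in level was 1.71% ± 0.625 (SD, n = 3) against a wild-type level of 1.38% ± 0.0758 (SD, n = 2). The difference of 0.328 points was smaller than the knock-in spread (exact 2-sided permutation p = 0.9).

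**Figure D2:**
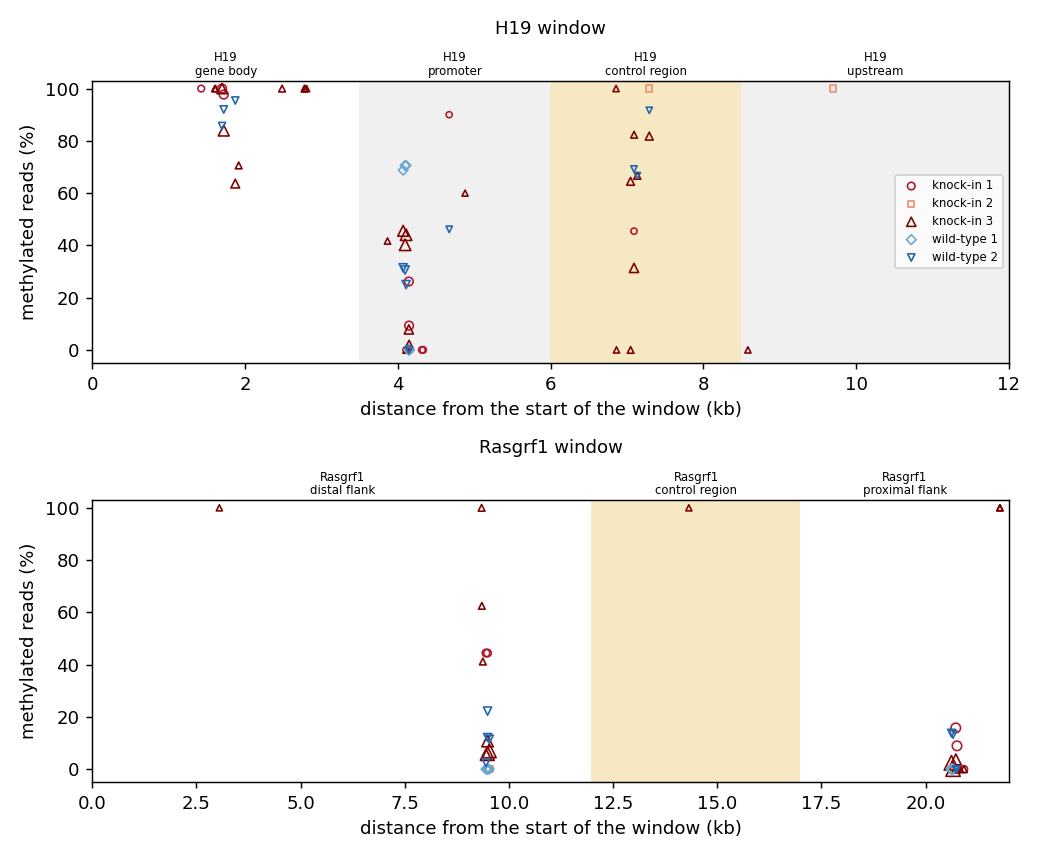
Percent of methylated reads at each listed CpG position (symbols, one kind per library, larger with more reads) against distance from the start of the H19 window and of the Rasgrf1 window, in kb. Shading marks the regions, with control regions in sand: 8 positions lie in that of H19 and 1 in that of Rasgrf1.

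The Rasgrf1 control region was almost unread. It held 1 position, 89774318, listed in knock-in replicate 3 alone, where all of 10 reads were methylated. On its distal side, 4 positions from 89769450 to 89769530 were listed in the 3 deepest libraries. They averaged 22.2% in knock-in replicate 1, 7.32% in knock-in replicate 3 against 12.1% in wild-type replicate 2, so the wild-type library lay between the knock-in libraries. In knock-in replicate 1 this split by strand: 44.4% at both forward positions and 0% at both reverse positions. Wild-type replicate 1 was at 0% at all 4, and knock-in replicate 2 at 0% at the 2 it listed. On the proximal side, toward the gene, the 4 positions from 89780620 to 89780753 averaged 6.18% and 0.610% in these knock-in replicates, with wild-type replicate 2 at 6.78%. At the shared positions 89780620 and 89780659 wild-type replicate 2 was highest, at 13.8 and 13.3%, and the other 4 libraries were at 0 to 2.44%. Higher levels on the flanks came from knock-in replicate 3 alone, such as 89763052 and 89769345 at 100%.

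On chromosome 12 the level changed sharply with position. The Dlk1 gene was nearly unmethylated at its start. Over 17 shared positions from 110691606 to 110691815 knock-in replicates 1, 2 and 3 were at 0.939, 1.14 and 1.32%, against 0 and 0.392% for wild-type replicates 1 and 2. The knock-in libraries averaged 1.13% ± 0.190 (SD, n = 3) and the wild-type libraries 0.196% ± 0.277 (SD, n = 2), and the groups did not overlap. The difference of 0.937 points had an exact 2-sided permutation p of 0.1, the smallest that 10 divisions of 5 libraries allow. It came from few cytosines: 8 of the 17 positions had any methylated read in a knock-in library and 1 in a wild-type library. The count is not corrected for depth. There were 3 knock-in libraries against 2, and knock-in replicates 1 and 3 had more reads here than either wild-type library. More reads give more chance of 1 methylated read, as at 110691643 (1 of 68 reads in knock-in replicate 3). At position 110691789 the knock-in values were 8.93, 14.9 and 4.42% and the wild-type values 0 and 6.67%, so there the groups overlapped. Reads with C at 27 CpG positions of mitochondrial DNA, taken as a guide to unconverted cytosine, were 0.143, 0.0363 and 0.0431% in knock-in replicates 1, 2 and 3. They were 0.198 and 0.0946% in wild-type replicates 1 and 2. Conversion at the Dlk1 positions themselves was not measured.

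Read as a tile of 1 kb, this stretch (110691000 to 110691999) had knock-in levels of 1.53, 1.68 and 1.61% and wild-type levels of 0 and 0.517%. The reads numbered 1173, 477, 2169, 407 and 580 in that order, and 0 of 407 allows up to 0.737%. Of the 24319 tiles tested, 8.98% had their lowest knock-in value above the highest wild-type value, and 3.61% the reverse. Of 2 tested tiles in the windows, this was the only one of either kind. By edgeR's quasi-likelihood test over all 24319 tiles its adjusted p was 1, and 0% of all tiles passed in either direction. The edgeR counts at an unadjusted p under 0.05 were 205 higher and 182 lower of the 24319 tiles, and limma passed 0 tiles as well. With limma on arcsine square root levels the unadjusted counts were 646 higher and 296 lower. Its smallest adjusted p was 0.0514, just above the limit of 0.05. With more positions but fewer libraries the values lay closer together: across 45 positions of the tile that the 3 deepest libraries listed, the knock-in values were 0.927 and 0.878% and the wild-type value 0.811%.

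Further into Dlk1 levels were intermediate. Over 7 positions from 110698041 to 110698229, weighted by reads, knock-in replicates 1 and 3 were at 39.6 and 50.0% and wild-type replicate 2 at 59.4%. The wild-type value was the highest, and the knock-in libraries lay 10.4 points apart. In the tile from 110692000, with 3 such positions, the order was different: the same knock-in libraries were at 59.7 and 35.7%, with wild-type replicate 2 between them at 39.7%. From there to the control region methylation was high in all libraries. The 17 positions listed in the 3 deepest averaged 84.1% in both of these knock-in libraries, with 84.2% in the wild-type library. Within this stretch, position 110735083 on the reverse strand was at 0% in all 3 of these libraries (20, 14 and 32 reads), while the cytosine opposite it, 110735082, was at 100% in all 3.

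The intergenic control region was listed from 110763922 to 110766836, but beyond 110764947 by knock-in replicate 3 alone. The part listed in several libraries did not read as an even mix in most of its CpGs. These values do not describe the rest of the region. Of 12 positions listed in 3 or more libraries, all from 110763922 to 110764947, 4 were under 20% and 7 at 80% or more on average. The 2 shared positions 110763922 and 110763965 were at 0% in all 5 libraries, on 23 to 119 reads. After a gap of 886 bases without such a position, the mean level was 80% or more at all but 1 of these positions, 110764928. Position 110764947, the highest of the 6 shared positions, was at 72.3% in knock-in replicate 2 and at 100% in the other 4 libraries. Position 110764924, where group means lay furthest apart, had knock-in values of 100, 72.3 and 89.9% and wild-type values of 53.8 and 100%.

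Averaged over the 6 shared positions, the intergenic control region had knock-in levels of 66.7, 47.7 and 63.6% and wild-type levels of 58.97 and 64.2%. Knock-in replicate 2 and wild-type replicate 1 were the lowest, and the groups overlapped. The means were 59.3% ± 10.2 (SD, n = 3) and 61.6% ± 3.71 (SD, n = 2). The difference of -2.29 points was well within the spread (exact 2-sided permutation p = 0.9). It was 3.53 points without knock-in replicate 2 and 0.334 points without wild-type replicate 2. In the 2 libraries with high chromosome X levels it was -11.3 points, and in the 3 with low levels 0.907 points; the part of this split in the result was not tested. The tile with 4 of these positions, 110764000 to 110764999, had knock-in levels of 100, 71.6 and 95.4% and wild-type levels of 88.5 and 96.2%, with an edgeR adjusted p of 1. Its group means differed by -3.32 points while its fitted log2 odds ratio was 0.47, so the 2 measures differ in sign.

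A minority of the region's positions in each library were at 20 to 80%. Knock-in replicates 1, 2 and 3 had 1 of 10, 4 of 12 and 4 of 31. Wild-type replicate 1 had 1 of 6 and wild-type replicate 2 none of 12. Such levels were still rarer over all autosomal positions, except for wild-type replicate 2. The autosomal shares were 6.69, 4.61 and 8.90% for knock-in replicates 1, 2 and 3, against 10.0, 33.3 and 12.9% here. They were 7.47 and 7.41% for wild-type replicates 1 and 2, against 16.7 and 0%. In the stretch from Dlk1 to the control region, the shares were 28.6, 0 and 13.0% in knock-in replicates 1, 2 and 3. They were 0 and 10.3% there in wild-type replicates 1 and 2. In the 3 deepest libraries that stretch thus had no lower a share than the control region, and in the others a lower one. The shares in the control region rest on few positions. The part of the region closer to Meg3 was listed by knock-in replicate 3 alone. At 8 positions from 110766565 to 110766836, with 12 to 16 reads each, 110766565, 110766575 and 110766813 were at 50.0, 46.7 and 46.2%. Of the other 5, 3 were at 0%, 1 at 15.4% and 1 at 100%. With no other library there, no comparison of genotypes could be made.

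**Figure D3:**
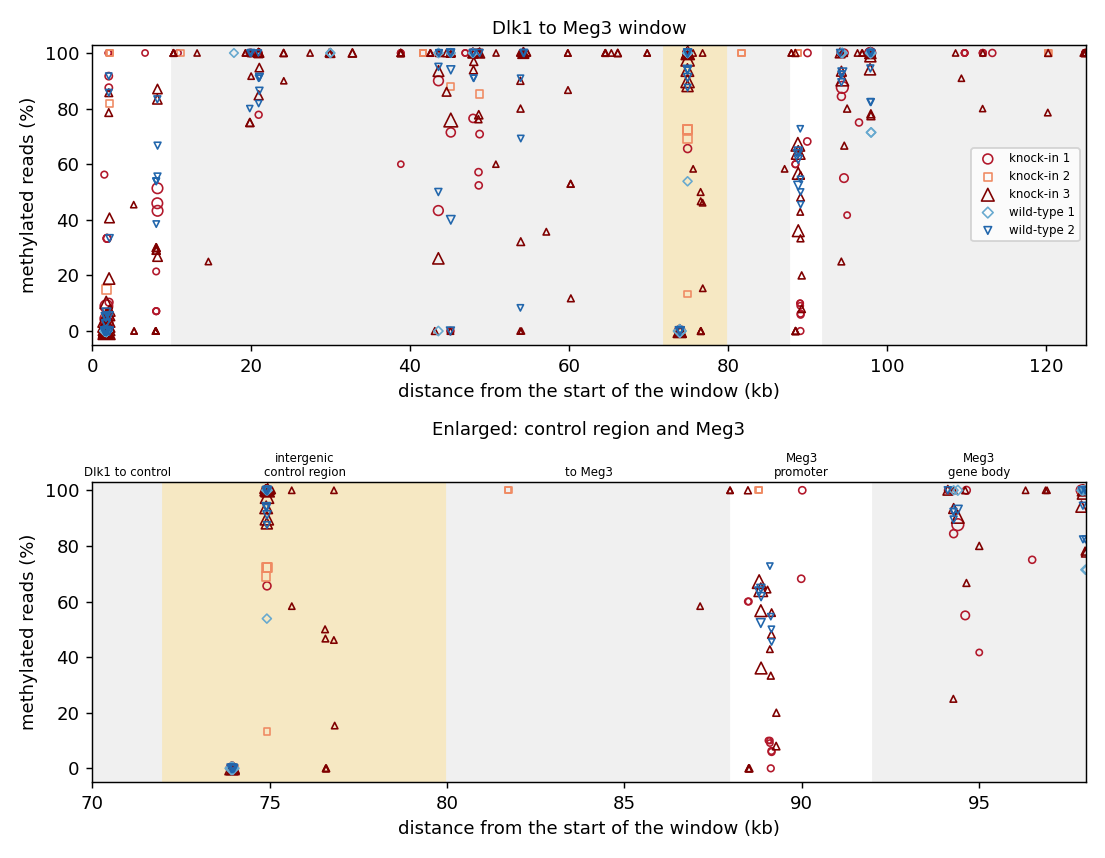
Percent of methylated reads at each listed CpG position of the Dlk1 to Meg3 window (symbols, one kind per library, larger with more reads) against distance from its start in kb; the lower panel enlarges 70 to 98 kb. The control region is in sand and other regions alternate in white and grey: levels are near 0% at the start of Dlk1, mostly high between the genes, and spread from 0 to 100% at the Meg3 promoter.

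The Meg3 promoter was partly methylated in some libraries, and of the 10 regions with positions in the 3 deepest libraries it was where the 2 knock-in libraries differed most. Knock-in replicate 3 had 10 of its 15 positions at 20 to 80% and wild-type replicate 2 all 8, while knock-in replicate 1 had 3 of 10 and knock-in replicate 2 none of 2, both being at 100%. The shares of all autosomal positions at these levels were 4.61 to 8.90% across the libraries. Upstream of the printed sequence, 4 positions were listed in both knock-in replicate 3 and wild-type replicate 2. Position 110778801 was at 67.2% and 63.6% in that order, 110778847 at 64.2% and 52.3%, 110778848 at 56.7% and 64.7%, and 110778855 at 36.1% and 61.8%. The wild-type library was higher at 2 of the 4 and lower at 2.

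In the printed sequence, 4 CpGs were listed in the 3 deepest libraries, at 110779103, 110779129, 110779146 and 110779152. Knock-in replicate 1 read 9.09, 0, 6.25 and 5.88% on 11 to 17 reads. Knock-in replicate 3 read 42.9, 33.3, 48.1 and 56.0% on 14 to 27 reads, and wild-type replicate 2 read 72.7, 54.5, 50.0 and 45.5% on 11 to 12 reads. Knock-in replicate 1 was lowest at each CpG. At 110779146 the Wilson intervals were 1.11 to 28.3% in knock-in replicate 1, 30.7 to 66.01% for knock-in replicate 3 and, for wild-type replicate 2, 25.4 to 74.6%. There the knock-in intervals were apart, and that of wild-type replicate 2 overlapped both. At 110779103 and 110779129 the knock-in intervals overlapped, and knock-in replicate 1 was apart from wild-type replicate 2.

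The means over the 4 CpGs were 5.31, 45.1 and 55.7%, so knock-in replicate 1 minus replicate 3 was -39.8 points and the knock-in mean minus wild-type replicate 2 was -30.5 points. The spread within the knock-in group was thus wider than the distance between groups, and with 1 wild-type library no test was made. Weighted by reads the distance between the knock-in libraries was 41.4 points. Of the 7331 autosomal tiles that averaged 20 to 80% in these 3 libraries, 2.65% had a distance at least as wide, and their median distance was 9.41 points. The knock-in mean minus wild-type replicate 2 was -29.8 points on this scale, and 2.59% of the same tiles had a distance at least as wide. These shares do not measure how unusual the region is. It had the widest distance between the knock-in libraries of the regions described. The tiles were also not matched to its 4 CpGs and 45 to 84 reads per library. In Meg3's body the level was high again, at 95.3, 96.1 and 93.2% over 6 positions.

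**Figure D4:**
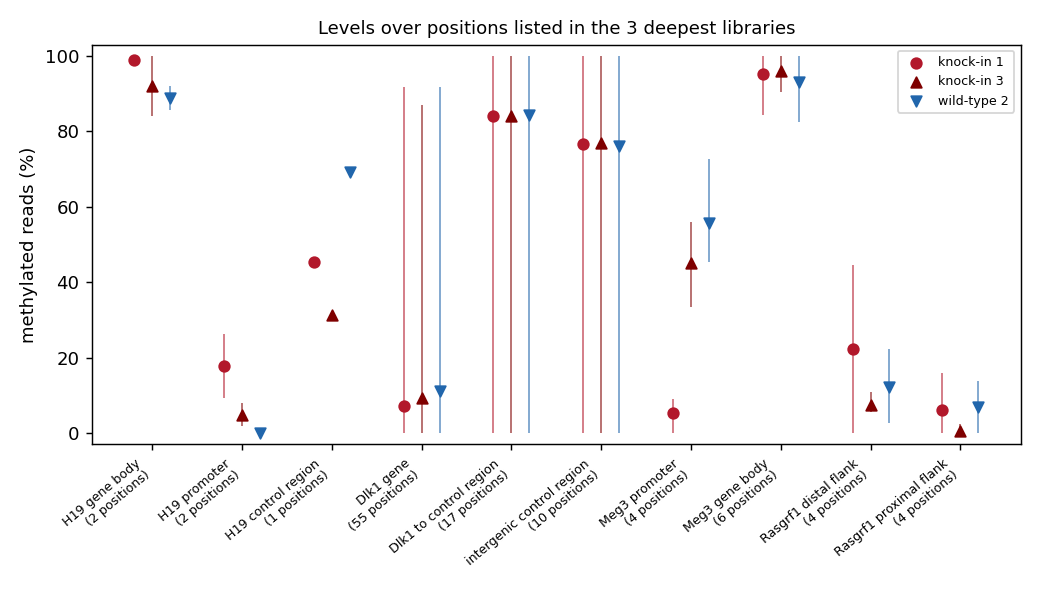
Mean percent of methylated reads (symbols) and the lowest and highest position (lines) in each region, over positions that the 3 deepest libraries list (knock-in replicates 1 and 3, wild-type replicate 2). The libraries lie close together between Dlk1 and the control region, at 84.1 to 84.2%, and far apart at the Meg3 promoter, at 5.31 to 55.7%.

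The 2 strands of a CpG often differed where their average was intermediate. In the windows, 13 pairs of opposite cytosines averaged 20 to 80% within a library, and in 11 of them the strands were at least 30 points apart. A CpG was counted once for each library, so these are not all different CpGs. The pair at 110735082, for example, entered from knock-in replicates 1 and 3 and from wild-type replicate 2. In the H19 control region, knock-in replicate 3 was at 64.5% on the forward strand at 149767047 (31 reads) and at 0% opposite it (16 reads). At 149767092 it was at 31.4% and at 82.4% on the reverse strand. This was common genome-wide: 50.6 to 79.8% of such autosomal pairs were at least 30 points apart, depending on the library. Choosing pairs by their average leaves out those with both strands near 0 or near 100%. It also keeps every pair with 1 strand at 0 and the other at 100%. The shares are therefore partly set by the choice of pairs.

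Control regions methylated on the maternal copy served for comparison. Of 10 such regions (Peg10, Mest, Peg3, Snrpn, Kcnq1ot1, Plagl1, Grb10, Zrsr1, Igf2r and Nnat), 7 had at least 3 shared positions. Averaged over the 5 libraries, all 7 lay between 25.1 and 60.9%. Single libraries could be far from these means where only 3 positions were shared. Snrpn was unmethylated (0%) for knock-in replicate 2 as well as wild-type replicate 1. Its level was 30.1 to 55.3% for the other libraries. Kcnq1ot1 ranged from 19.2% (wild-type replicate 1) to 100% (knock-in replicate 2). The remaining regions of the 7 were at 20 to 80% in every library. In knock-in replicate 3, 337 of 447 listed positions in the 10 regions (75.4%) were at 20 to 80%, against 7 of 40 (17.5%) in the 3 paternal control regions, 31 of them intergenic on chromosome 12. The other libraries ranged from 40.4 to 90.4% in maternal and from 13.3 to 30.8% in paternal control regions, closest in knock-in replicate 2, at 61 of 151 (40.4%) and 4 of 13 (30.8%). The difference between genotypes was set against that of the 7 maternal regions, with the intergenic control region as the only paternal one measured in all libraries. It entered through 6 shared positions from 110763922 to 110764947, each with a mean of 0% or above 80%. The contrast thus sets only this part of it, unlike the maternal regions in mean level, against them. The paternal value (knock-in minus wild-type) was -2.29 points and the maternal one 4.37 points. The latter averaged regions of both signs, from -13.9 points at Mest to 30.0 points at Zrsr1. It was also close to the median difference of 4.89 points over the 1551 autosomal tiles that averaged 20 to 80%. In tiles of 80% or more the median was 0.837 points, and in tiles under 20% it was 0.0466 points. The part of level in the contrast was not tested. The contrast of -6.66 points did not stand apart from the spread (exact 2-sided permutation p = 0.9), and it was 2.20 points without knock-in replicate 2.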

How the data were processed

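For each library the authors deposited a table of CpG cytosines, each strand on its own line. Per the file headers it gives coverage, deposited as whole read counts of at least 10, and the percent of reads with C and with T. The submitters' processing notes name CASAVA 1.7, Bismark and mm9; for Bismark they give no version. Methylated reads were coverage times the percent of C. Listed positions numbered 447270 to 2028186 per library, with a median of 16 to 33 reads, which limits single positions to the intervals given.

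Levels were unweighted means over positions shared by all 5 libraries, for regions with at least 3. Other regions were described library by library. Group means were tested by exact 2-sided permutation. Autosomal tiles of 1 kb with at least 3 shared positions were tested genome-wide with edgeR 4.0.16 (quasi-likelihood, a term per library, Benjamini-Hochberg at 0.05). limma 3.58.1 was an alternative. The code was tested on simulated data. For tiles these held large shifts from low levels, which does not measure power for smaller differences or for intermediate levels. Software was R 4.3.3 and Python 3.11.15 with scipy 1.17.1, numpy 2.4.6, matplotlib 3.10.9 and pandas 2.3.3.

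Windows were given; regions within them and the maternal list were set from known mm9 positions, without an mm9 annotation. Members and lists were chosen with earlier results of these data known. Named were all regions and tested tiles, and in each control region and the Meg3 promoter the shared position highest, lowest and furthest apart between groups. Alternatives were read weighting, 20 reads, own positions, summed strands, coverage outliers left out, 5 positions per tile, each library left out, and the chromosome X split.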

Additional observations from a re-analysis of the deposited data

How the results depend on the processing

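At the intergenic control region the sign depended on the setting. Knock-in minus wild-type was 14.7 points weighted by reads, 3.44 over each library's own positions, 0.907 within the libraries of low chromosome X levels, and 0.730 over 10 positions of the 3 deepest libraries, a setting chosen after seeing the data. It ranged from -5.97 to 3.53 with 1 library left out. Read weighting took wild-type replicate 1 from 58.97 to 32.6%. That library had 45 and 44 reads at 110763922 and 110763965, which were at 0% in every library, and 13 at each other shared position. The weighted difference therefore also depends on how the reads were spread over positions. At the Dlk1 gene 12 of 13 alternatives kept the direction, and over 55 positions of the 3 deepest libraries the difference was -2.96 points. The contrast with maternal regions, which takes in the same intergenic values, was 8.33 points weighted by reads and -11.9 to 2.20 with 1 library left out. The fitted log2 odds ratio of the tile from 110764000 was 0.470, and -0.946 to 1.99 with 1 library left out; that of the tile from 110691000 was 2.69, and 1.63 to 7.52. No alternative, including limma on log2 ratios (chosen after seeing the data), passed a tile. With 20 reads the intergenic region, and with it the contrast, had too few positions for a value. The causes were not tested. No paired analysis was possible because replicate numbers follow accession order and tie no knock-in library to a wild-type library. Depth left 32 shared positions in 9 clusters, none in the H19 and Rasgrf1 control regions, and 5 libraries allow no permutation p under 0.1.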
